A study of Mus musculus with 59 samples.

Results

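The comparison is of remote myocardium with matched sham myocardium 4 hours after operation in the mouse. It rests on 6 of the 59 arrays of the series, chosen by their titles: 3 remote arrays and 3 sham upper arrays. Arrays are called by the number in their title after a letter for the region: R389, R390 and R391 are the remote arrays and S506, S507 and S509 the sham upper arrays. Each array measured total RNA from 1 piece of left ventricle on an Affymetrix oligonucleotide array of mouse genes. The remote pieces came from mice with myocardial infarction and were taken above the left anterior descending (LAD) coronary artery, outside the infarct. The sham upper pieces came from sham operated mice and were taken from the same position. Infarct pieces of the same title numbers, taken between the artery and the apex, and remote and sham upper pieces of 1 hour and 24 hours (3 arrays in each group) were used to place the 4 hour change. The labels give no strain, sex, age or treatment beyond the operation, and no transgene or deletion is named for any group. They also do not say that the arrays of a group come from separate mice, so the p-values below measure only the spread between these samples. At 1, 4 and 24 hours the title numbers of the infarcted mice and of the sham operated mice lie in separate ranges, so a difference in handling between the 2 operations cannot be told apart from the infarction.

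Remote myocardium is the muscle that keeps its blood supply after a coronary artery is closed. It is not itself ischaemic, but it takes over the work of the lost muscle, is stretched by the higher filling pressure, and is reached by catecholamines, cytokines and activated leukocytes from the blood and from the neighbouring infarct. Stretched or stressed heart muscle is known for a first wave of transcription factors of the AP-1 and Egr families. Cytokines, chemokines, chaperones and natriuretic peptides follow, and leukocytes enter through adhesion molecules on activated endothelium.

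At 4 hours, 116 of 6670 genes tested differed between remote and sham upper myocardium (1.74%), at a Benjamini-Hochberg adjusted p below 0.05 in limma. Of these, 95 were higher in the remote pieces (1.42% of the genes tested) and 21 were lower (0.315%). Rises were larger than falls: 61 of the 95 reached 2-fold or more, whereas none of the 21 falls did, the largest being a log2 change of -0.90. The higher genes were led by cytokines and chemokines (Il6, Ccl2, Cxcl1, Cxcl2), immediate early factors (Fos, Atf3, Egr1), the inducible 70 kDa heat shock proteins (Hspa1a, Hspa1b) and neutrophil S100 proteins (S100a8, S100a9). Genes of contraction and of oxidative phosphorylation gave no call. Without any correction, 829 genes had p below 0.05. Remote and sham arrays were fully separate in 1598 genes (24%), of which 752 were higher (11.3%) and 846 lower (12.7%) in the remote pieces. All 116 genes that passed were among them. For a single gene, the exact permutation test of 3 arrays against 3 cannot go below a p of 0.10, so the calls rest on limma, which takes its estimate of the spread from all 59 arrays.

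Values are intensities on a linear scale, and log2 changes are differences of log2(intensity + 45.6), remote minus sham upper, with their standard errors (SE). The added 45.6 shrinks the change of dim genes. The array medians lay between 181.1 and 184.95 in the remote group and between 172.1 and 183.8 in the sham upper group. The deposited values were already on a common scale, so near medians say little about quality. The ratio of the 3' to the 5' probe sets of Gapdh, a measure of RNA integrity, lay between 0.817 and 0.872 on the remote arrays and between 0.851 and 0.904 on the sham arrays. The same ratio for actin lay between 1.32 and 1.51 on the remote arrays and between 1.24 and 1.57 on the sham arrays. Arrays within each group correlated at 0.974 or more across genes, and no pair of arrays was identical. Remote arrays correlated nearly as closely, at 0.972 to 0.977, with the infarct arrays of the same numbers. The 19 ventricular cardiomyocyte markers summed to 281352, 293390 and 281783 in the remote pieces, against 268573, 316596 and 315037 in the sham pieces. Such sums of bright genes cannot show whether a piece also held other tissue. Fat and atrial genes are given below.

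Remote array R389 stood apart from the other remote arrays in genes of fat tissue. Adipoq, which encodes the fat cell hormone adiponectin, read 2658 on remote array R389, against 87.1 and 82.0 on the other remote arrays and 76.6, 105 and 52.1 on the sham arrays. Car3, a carbonic anhydrase abundant in fat, read 2125 on the same array, against 73.8 and 84.5 on the other remote arrays. The 8 adipocyte markers measured summed to 7968, 2865 and 3008 on the remote arrays and to 2927, 2927 and 2772 on the sham arrays, and none of them passed in limma (2 at an unadjusted p below 0.05). The infarct piece of the same number did not show it, with Adipoq at 60.6. The same array was also the highest for many inflammatory genes: 17 of the 95 rising genes lay more than 1 log2 unit above the mean of the other remote arrays on array R389, whereas none did so on R390 or R391. Over all genes tested, 63 lay that far above on R389, 25 on R390 and 9 on R391. The part of this array in the results below was not tested beyond leaving it out, and calls lost without it are named as such below. Without array R389, 59 genes passed, 52 higher and 7 lower, and 57 of them were among the 116. The other 59 calls were lost without it.

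**Figure D1:**
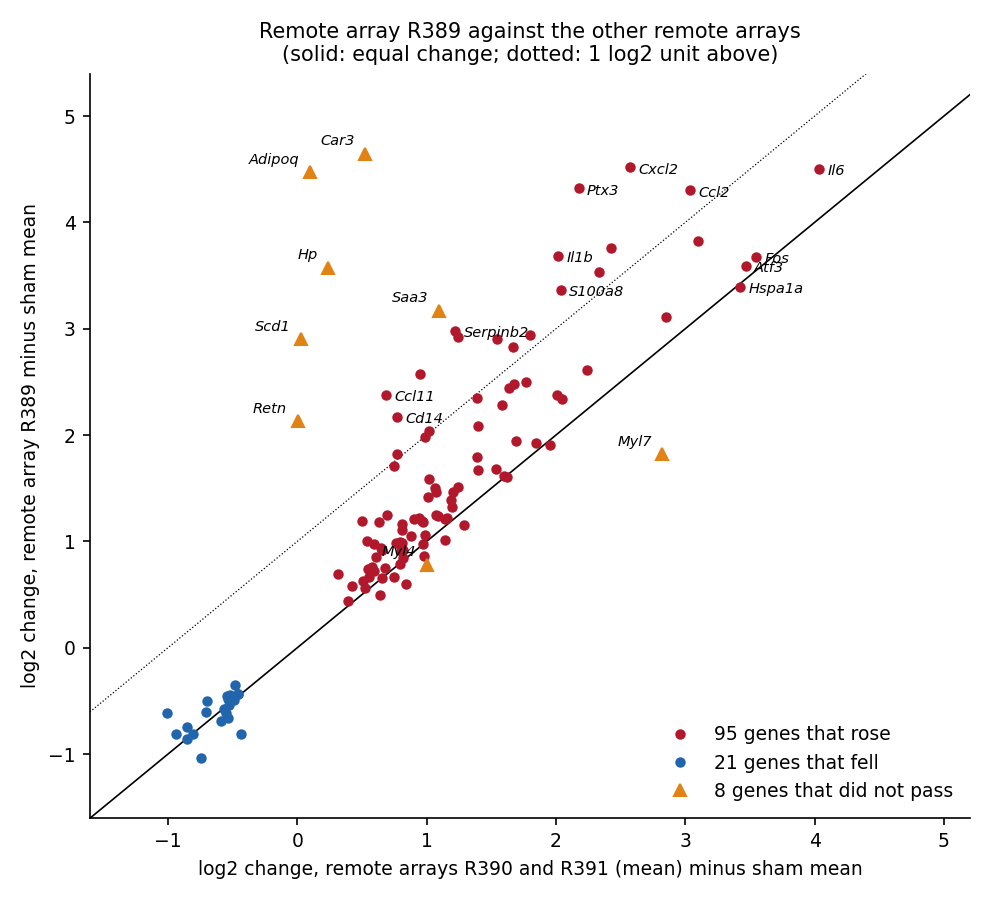
Change of each gene on remote array R389 (vertical, log2 intensity minus the sham upper mean) against its mean change on remote arrays R390 and R391 (horizontal, same unit), for the 95 genes that rose, the 21 that fell and 8 that did not pass. Genes above the dotted line changed by over 1 log2 unit more on array R389: 17 rising genes, among them Ptx3, Cxcl2, Il1b, S100a8 and Cd14, together with fat genes such as Adipoq and Car3, while Fos, Atf3 and Hspa1a lie near the line of equal change.

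The immediate early factors held the largest number of calls of any list. Of 25 members measured of 30 listed, 11 rose and none fell, where 1.42% of all genes tested rose and 0.315% fell. These shares stand beside each list count below. The median log2 change was 0.69 against -0.00 over all genes tested, and the same 11 remained without array R389. Fos, the DNA-binding partner of Jun proteins in AP-1, read 5547, 5334 and 4818 in the remote pieces and 308.5, 359 and 541 in the sham pieces. Its log2 change was 3.59 ± 0.41 (SE, limma adjusted p = 7.7e-08), and the lowest remote value was far above the highest sham value. Atf3, a stress-induced repressor that also pairs with Jun proteins, read 3581, 3553 and 3024 in the remote pieces and 274, 260 and 232 in the sham pieces. The change was 3.51 ± 0.32 (limma adjusted p = 4.2e-10), and a second probe set gave 3.56. Egr1, a zinc finger factor induced by stretch and growth factors, read 2874, 2139 and 2563 in the remote pieces against 401, 631 and 591 in the sham pieces, a log2 change of 2.14 ± 0.30. Junb, Fosl1 and Fosb, further AP-1 subunits, rose by 1.59, 1.71 and 1.29 log2 units. Egr2 and Myc, a driver of growth and ribosome production, rose by 1.04 and 1.24. Zfp36, whose product destabilises cytokine mRNAs, read 3031, 2954 and 2823 in the remote pieces and 1204, 1298 and 1314 in the sham pieces. It rose by 1.18 log2 units, and Ier2 and Ier3 rose by 0.84 and 1.2. Nr4a1, an orphan nuclear receptor of the same early class, read 1623, 1451 and 1454 in the remote pieces and 474, 568 and 861 in the sham pieces, yet did not pass (log2 1.23 ± 0.49, limma adjusted p = 0.27).

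**Figure D2:**
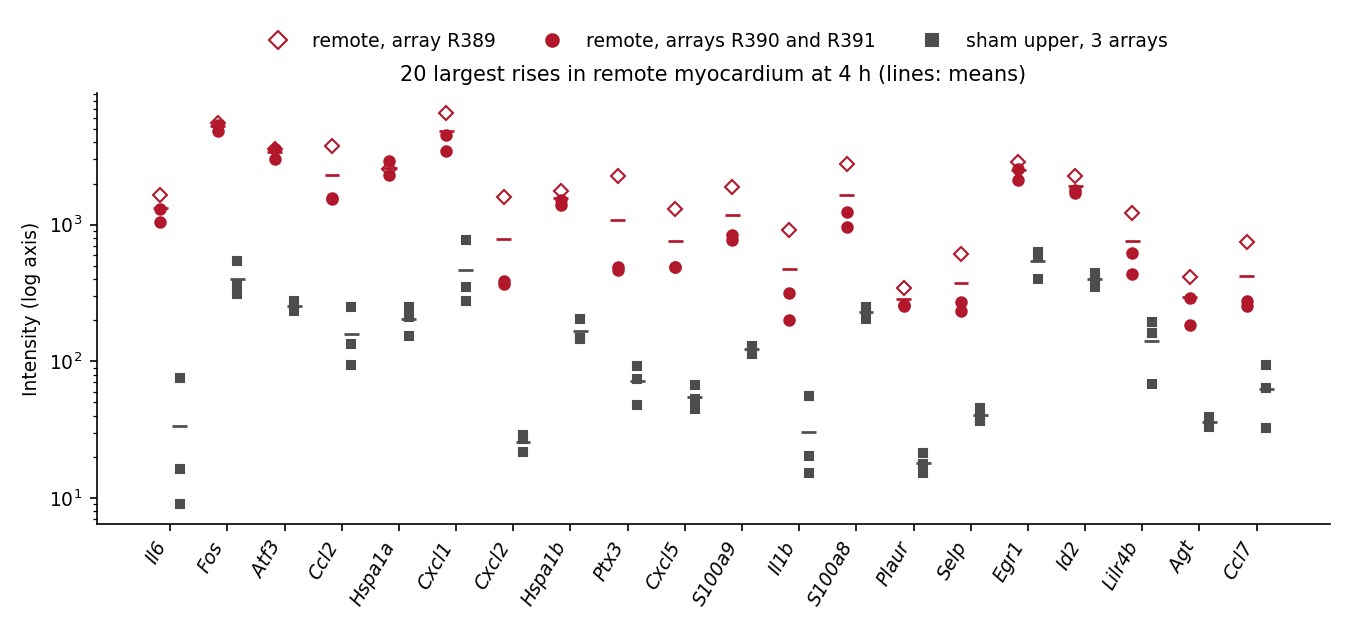
Intensity on each array (log axis) of the 20 genes with the largest rises, with remote arrays to the left of sham upper arrays and short lines at the group means. No gene overlaps between the groups; remote array R389, the open diamond, lies well above the other remote arrays for Cxcl2, Ptx3, Cxcl5, Il1b and Selp but not for Fos, Atf3, Hspa1a or Egr1.

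Il6, the cytokine that signals through gp130 to STAT3, had the largest rise of all genes that passed. It read 1636, 1302 and 1049 in the remote pieces and 9.0, 16.2 and 75.1 in the sham pieces, which is near background. Its log2 change of 4.19 ± 0.38 (limma adjusted p = 4.2e-10) was 4.03 without array R389. The sham value near background makes this change a compressed one, because of the added offset. With a list median of 0.42, 4 of 16 cytokines and growth factors measured (31 listed) rose, against 1.42% of all genes tested, and none fell. The others were Il1b, Il1rn, the natural antagonist of the interleukin 1 receptor, and Inhbb, a subunit of activin and inhibin. Il1b read 907, 200 and 317 in the remote pieces and 20.2, 15.2 and 55.3 in the sham pieces (log2 2.57 ± 0.61, limma adjusted p = 0.014). Array R389 was the high one here, and without it Il1b stood at 2.0 with an adjusted p of 0.2. Il1rn and Inhbb also did not pass without it (adjusted p = 0.063 and 0.10), so Il6 was the 1 cytokine called with and without array R389. Csf3, the granulocyte growth factor, lay outside the call at 0.92 (limma adjusted p = 0.056).

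Chemokines and immediate early factors had the highest medians of the 33 lists. With all arrays chemokines were the higher, and without array R389 the order was the other way round, at 0.53 for chemokines and 0.815 for immediate early factors. Of 19 chemokines measured of 30 listed, 7 rose, against 1.42% of all genes tested, and none fell. Their median log2 change was 0.74, and 4 passed without array R389. Cxcl1 and Cxcl2, which draw neutrophils through the receptor Cxcr2, were both strongly higher. Cxcl1 read 6588, 4547 and 3464 in the remote pieces and 277, 348 and 766.5 in the sham pieces, a log2 change of 3.34 ± 0.35, with 3.09 from a second probe set. Cxcl2 read 1589, 389.3 and 369 in the remote pieces and 27.0, 28.9 and 21.5 in the sham pieces, a change of 3.22 ± 0.44, which was 2.58 without array R389. Ccl2, which draws monocytes through the receptor Ccr2, read 3796, 1577 and 1538 in the remote pieces and 134, 94.0 and 249 in the sham pieces. Its log2 change was 3.46 ± 0.41 (limma adjusted p = 1.5e-07), and 3.02 without array R389. Cxcl5, another neutrophil attractant, rose by 2.87, and Ccl7, a monocyte attractant related to Ccl2, by 2.0. Ccl3 and the eosinophil attractant Ccl11 rose by 1.21 and 1.25. The last 3 did not pass without array R389, with limma adjusted p of 0.051 for Ccl7, 0.20 for Ccl3 and 0.38 for Ccl11.

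Promoters of 73 of the 95 rising genes and 15 of the 21 falling genes were matched to the RefSeq table of the GRCm38.p6 build, and the 250 bases before each start were searched on both strands. Shares are given beside those of the 5347 tested genes with a promoter in the table and of all 27025 promoters. A consensus NF-kB element was found in 9 of the 73 (12.3%), against 4.32% of tested genes and 3.75% of all promoters, in Casp4, Cxcl1, Cxcl2, Ero1a, Fos, Fosb, Ier3, Il6 and Vegfa. The AP-1 element, TGANTCA, was in 12.3%, against 5.07% of tested genes and 6.87% of all promoters. The STAT element, TTCNNNGAA, was in 15.1%, against 6.12% and 7.18%, and the serum response element in 4.11%, against 1.31% and 1.4%. The E-box, CACGTG, was in 11% against 8.86% and 6.05%, and the cAMP response element, TGACGTCA, in 2.74% against 2.51% and 1.62%, both near the share of tested genes. The heat shock element, in a strict form of 3 alternating units, was in none of the 73, in 0.318% of tested genes and in 0.4% of all promoters. Among the 15 promoters of falling genes the E-box was in 3 (20%), the AP-1, STAT and cAMP elements in 1 each, and the NF-kB, serum response and heat shock elements in none. A match of letters describes the sequence and is not a bound site. Il6, Cxcl1, Cxcl2 and Ier3 are shown as examples of the NF-kB match. Like Casp4, Fos and Fosb, but unlike Ero1a and Vegfa, they were called higher under all 15 alternative settings tried; capitals mark the NF-kB match, which in Cxcl1 and Cxcl2 covers a pair of overlapping matches.
Il6 (chr5:30012864-30013113, plus strand): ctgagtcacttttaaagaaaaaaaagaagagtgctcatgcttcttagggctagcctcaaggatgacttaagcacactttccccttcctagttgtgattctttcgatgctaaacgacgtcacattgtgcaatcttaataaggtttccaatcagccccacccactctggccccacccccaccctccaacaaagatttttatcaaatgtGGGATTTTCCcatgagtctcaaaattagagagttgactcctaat
Cxcl1 (chr5:90890995-90891244, plus strand): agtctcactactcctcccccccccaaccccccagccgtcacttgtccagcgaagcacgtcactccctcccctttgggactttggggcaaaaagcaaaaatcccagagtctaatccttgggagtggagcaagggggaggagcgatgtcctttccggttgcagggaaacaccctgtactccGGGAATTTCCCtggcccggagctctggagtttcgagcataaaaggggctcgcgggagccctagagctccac
Cxcl2 (chr5:90903649-90903898, plus strand): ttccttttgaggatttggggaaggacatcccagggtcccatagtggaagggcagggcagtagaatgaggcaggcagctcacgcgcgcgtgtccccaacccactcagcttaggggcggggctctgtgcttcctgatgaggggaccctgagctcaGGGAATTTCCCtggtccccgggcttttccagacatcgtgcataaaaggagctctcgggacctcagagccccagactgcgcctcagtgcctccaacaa
Ier3 (chr17:35821463-35821712, plus strand): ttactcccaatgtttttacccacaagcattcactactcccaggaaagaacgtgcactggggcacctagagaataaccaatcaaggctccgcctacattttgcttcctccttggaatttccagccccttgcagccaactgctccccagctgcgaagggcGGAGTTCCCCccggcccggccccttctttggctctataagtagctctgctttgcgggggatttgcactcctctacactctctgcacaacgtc
The match began 44 bases before the start of Il6, 71 before that of Cxcl1, 97 before that of Cxcl2 and 92 before that of Ier3.

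The lists of genes that receive or restrain these signals also held calls, though most of their members did not pass. Against 1.42% of all genes tested, 3 of 28 and 3 of 22 rose in the lists that follow. Among 28 cytokine receptors and gp130 pathway genes measured, 3 rose, with a list median of 0.14: Il1r2, Socs3 and Junb, the last already counted among the immediate early factors. Socs3, which switches gp130 signalling off, read 1372, 1293 and 1015 in the remote pieces and 257, 328 and 398.5 in the sham pieces. The change was 1.77 ± 0.23 (limma adjusted p = 1.1e-06), and a second probe set gave 2.69. Il1r2, the decoy receptor of interleukin 1, rose by 1.82. Among 22 genes of the NF-kB pathway and its feedback, 3 rose: Nfkbiz, an inducible nuclear cofactor (1.52 ± 0.20), Ptgs2, the inducible prostaglandin synthase (1.63 ± 0.27), and Cd14, the co-receptor for endotoxin. Cd14 read 4869, 1622 and 2020 in the remote pieces and 1061, 1127 and 951 in the sham pieces, and did not pass without array R389 (0.76, limma adjusted p = 0.35).

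Some inducible chaperones rose while most of the chaperone list did not pass. Of 23 measured, 4 rose, against 1.42% of all genes tested, and none fell, and 3 passed without array R389. Hspa1a read 2542, 2923 and 2306 in the remote pieces and 152, 249 and 209 in the sham pieces (log2 3.42 ± 0.48, limma adjusted p = 4.4e-06). Hspa1b read 1766.5, 1404 and 1523.5 in the remote pieces and 145, 147 and 204 in the sham pieces (log2 2.94 ± 0.48). These neighbouring genes on chromosome 17 encode the same inducible chaperone and are near copies, so their probe sets may share signal and the 2 values may be 1 measurement. How alike they are shows in their promoters, which differed in 3 of 250 bases, marked by capitals.
Hspa1a (chr17:34972157-34972406, minus strand): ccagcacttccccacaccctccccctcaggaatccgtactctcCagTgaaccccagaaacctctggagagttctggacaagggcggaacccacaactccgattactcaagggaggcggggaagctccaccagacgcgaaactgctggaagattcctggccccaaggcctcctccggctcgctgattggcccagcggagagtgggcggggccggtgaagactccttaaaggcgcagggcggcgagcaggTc
Hspa1b (chr17:34959239-34959488, minus strand): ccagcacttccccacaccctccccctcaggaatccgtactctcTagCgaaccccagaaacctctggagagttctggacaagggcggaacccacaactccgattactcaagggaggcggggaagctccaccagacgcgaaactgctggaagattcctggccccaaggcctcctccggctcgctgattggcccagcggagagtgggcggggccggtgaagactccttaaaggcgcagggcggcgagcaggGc
Hsp90aa1, the inducible 90 kDa chaperone, read 4210, 3901 and 4544 in the remote pieces and 2096, 2235 and 2048 in the sham pieces (0.97 ± 0.13). Hsph1, a nucleotide exchange factor of the 70 kDa class, rose by 0.72 and did not pass without array R389 (limma adjusted p = 0.079). Dnajb1, a co-chaperone, did not pass at 0.67 (limma adjusted p = 0.11). Of 25 genes of the unfolded protein and integrated stress response, Herpud1, a membrane protein of endoplasmic reticulum degradation, was the 1 that passed. The list median was 0.14 (0.06 without array R389), with 18 members above 0. Herpud1 read 3121, 3070 and 3204 in the remote pieces against 5851, 5904 and 5362 in the sham pieces, and fell by 0.85 log2 units (limma adjusted p = 0.028; 0.10 without array R389). Of 26 metallothionein and oxidative stress genes, Hmox1, the inducible heme oxygenase, was the 1 that rose, by 1.07, with an adjusted p of 0.052 without array R389. Mt2, a metal-binding protein, read 16741, 17131 and 14221 in the remote pieces against 9620, 10718 and 9288.5 in the sham pieces and did not pass (0.69, limma adjusted p = 0.15).

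**Figure D3:**
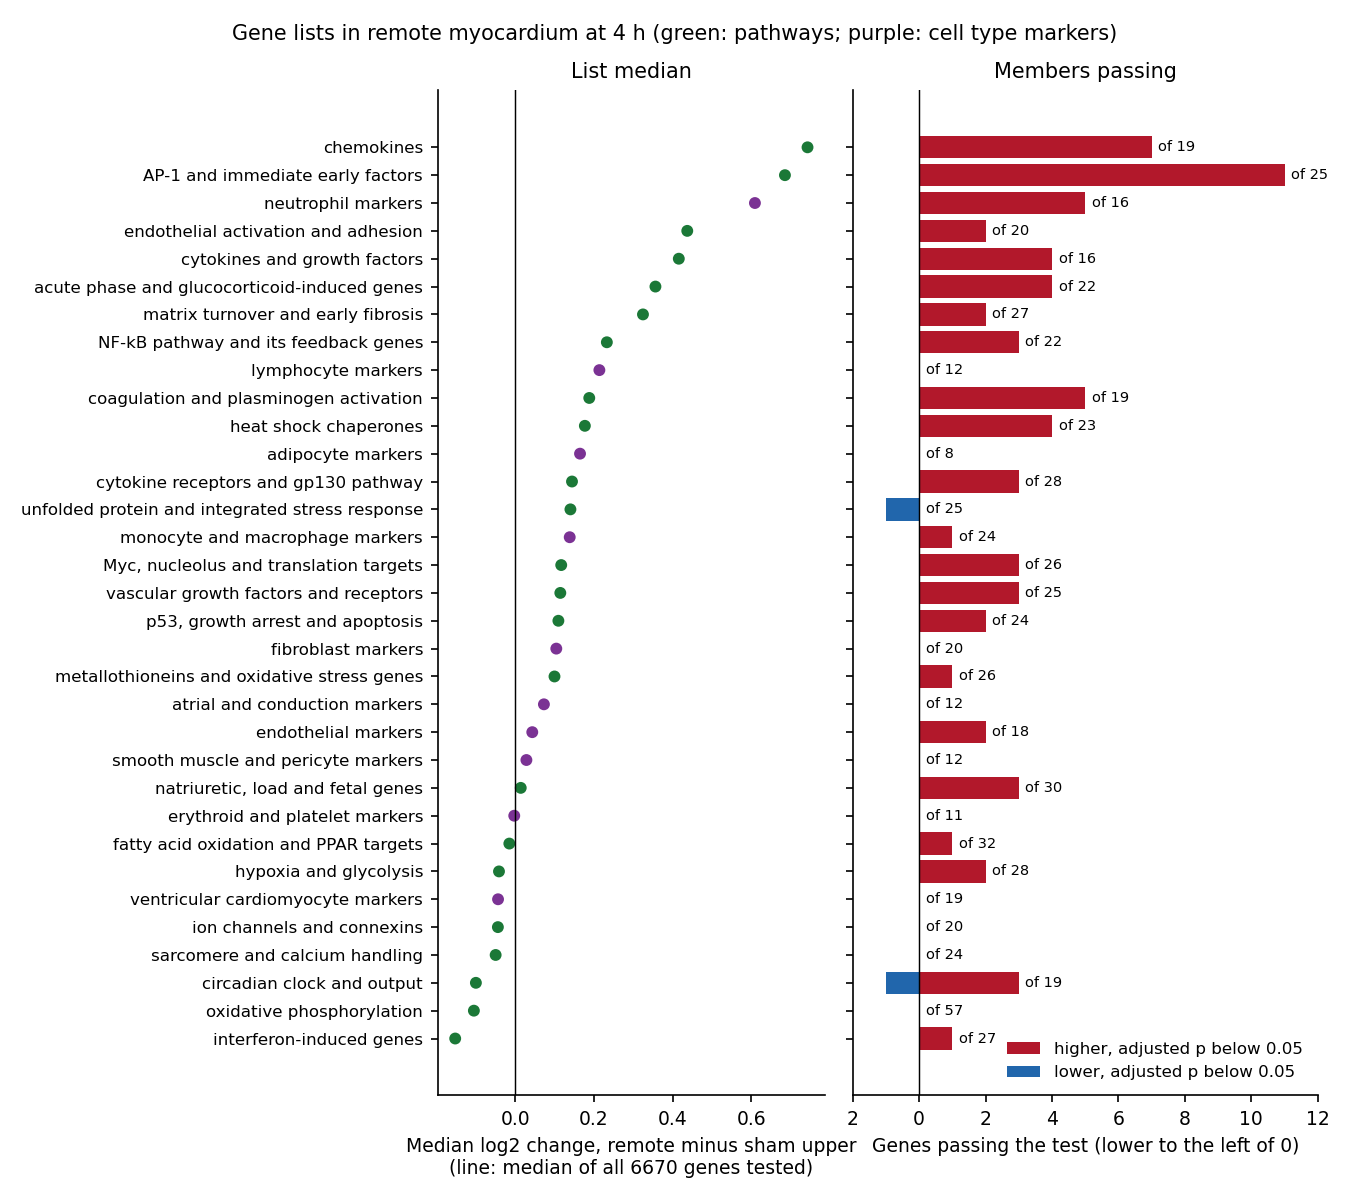
Median log2 change, remote minus sham upper, of 33 gene lists (left) and the number of measured members that were higher or lower at an adjusted p below 0.05 (right). Chemokines and immediate early factors have the highest medians, 0.74 and 0.69, and no gene of oxidative phosphorylation, of sarcomere and calcium handling or of ion channels passed.

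Genes of leukocytes and of the vessel wall were next. Of 16 neutrophil markers measured of 24 listed, 5 rose, against 1.42% of all genes tested, and none fell. The 5 were S100a8, S100a9, Il1r2, Lcn2 and Clec4d, and the list median was 0.61. Without array R389 the median was 0.43, and Lcn2 and Clec4d did not pass (limma adjusted p = 0.15 and 0.41). S100a8 and S100a9 form calprotectin, an abundant neutrophil protein. S100a8 read 2792, 957 and 1235 in the remote pieces and 239, 203 and 251 in the sham pieces (log2 2.48 ± 0.46, limma adjusted p = 0.00061). S100a9 read 1902, 767 and 835 in the remote pieces and 126, 114 and 129 in the sham pieces (2.73 ± 0.53). Both passed without array R389, with changes of 2.04 and 2.33. The 16 markers summed to 8348, 4735 and 4784 in the remote pieces and to 1976, 2049 and 1702 in the sham pieces, so every remote piece was above every sham piece. This sum leans on the brightest markers, among them S100a8, S100a9 and Lcn2, so it is not separate from their calls. The granule genes Mpo and Ltf were near background on all 6 arrays (31.2 to 62.9 and 23.7 to 36.4 in the remote pieces, 45.8 to 76.0 and 28.5 to 48.7 in the sham pieces). In such bulk samples, more cells of a type and more RNA per cell cannot be told apart, as holds for every list here. Of 24 monocyte and macrophage markers, Cd14 alone rose, with the loss without array R389 given above. Their sum was 23177 on remote array R389, 15996 and 16880 on the other remote arrays, and 16250 to 17599 on the sham arrays. No marker of lymphocytes, erythroid cells, fibroblasts or smooth muscle passed in limma, of 12, 11, 20 and 12 measured, with 0, 0, 2 and 3 at an unadjusted p below 0.05.

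On the endothelial side, Selp and Sele, the selectins on which leukocytes roll, rose by 2.18 ± 0.25 and 1.33 ± 0.21 log2 units. Selp read 614, 273 and 234 in the remote pieces and 38.2, 45.7 and 36.4 in the sham pieces, and it passed without array R389. They were the 2 that passed of 20 genes of endothelial activation and adhesion, whose median was 0.44, and 0.23 without array R389. Icam1, an adhesion molecule for leukocyte integrins, was 0.71 higher and did not pass (limma adjusted p = 0.17). The 18 endothelial identity markers had a median of 0.04, with Cldn5, a tight junction protein, at 0.91 and Thbd, thrombomodulin, at 0.73 as the 2 that rose. Of 19 coagulation and plasminogen genes 5 rose: Plaur, the urokinase receptor (2.37 ± 0.25), Procr, the endothelial protein C receptor (1.80), Serpinb2, a urokinase inhibitor (1.81), Tfpi2, a protease inhibitor (1.03), and Thbd. Plaur and Procr were the 2 that passed without array R389. A second probe set of Thbd gave 0.20 and did not pass. Beside these list counts, 1.42% of all genes tested rose.

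The acute phase and glucocorticoid list gave 4 rises among 22 genes, with a median of 0.36: Lcn2, an iron-scavenging protein (1.14), Ch25h, the cholesterol 25-hydroxylase (1.13), Fgl2, a prothrombinase (1.49), and Angptl4. Lcn2 did not pass without array R389 (limma adjusted p = 0.15), and its second probe set gave 0.08. The glucocorticoid-induced genes Fkbp5 and Per1, a clock gene, stood at -0.18 and 0.07, both short of a call. Of 27 interferon-induced genes Irf8, a factor of myeloid cells, was the 1 that rose (0.64), and it did not pass without array R389 (limma adjusted p = 0.17). The list median was -0.15, and -0.25 without that array. Of 24 genes of p53, growth arrest and apoptosis, Gadd45g and the inflammatory caspase Casp4 rose by 1.94 and 1.01. Besides Myc itself, Nop58, a nucleolar protein, and Eif1a, a translation initiation factor, rose by 0.83 and 0.81 among 26 Myc, nucleolus and translation genes. Nop58 did not pass without array R389 (limma adjusted p = 0.068). Over all genes tested, the share that rose, to be set beside these list counts, was 1.42%.

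Of growth, matrix and load genes, 3 of 25, 2 of 27 and 3 of 30 rose, against 1.42% of all genes tested. Among 25 vascular growth genes, Ccn1, a matricellular protein, rose by 1.62 on values of 1050, 1053 and 1071 in the remote pieces against 362.8, 318 and 269 in the sham pieces. Sphk1, the kinase that makes sphingosine 1-phosphate, rose by 1.91 and Vegfa by 1.21; Vegfa did not pass without array R389 (limma adjusted p = 0.20). Of 27 matrix genes 2 rose: Ptx3, a secreted pattern recognition protein (2.89; 2270, 466 and 490 in the remote pieces, 74.7, 48.2 and 92.5 in the sham pieces), and the basement membrane collagen Col4a1 (0.53), which did not pass without array R389 (limma adjusted p = 0.11). Of 30 natriuretic, load and fetal genes 3 rose. Nppb, the gene of brain natriuretic peptide and a marker of wall stretch, read 14689, 17534 and 14828 in the remote pieces and 6372, 7290 and 8284 in the sham pieces. Its change was 1.10 ± 0.28 (limma adjusted p = 0.029; 0.083 without array R389). Agt, the precursor of angiotensin, rose by 2.01 ± 0.40 on 413, 288 and 183 in the remote pieces against 35.0, 38.9 and 33.2 in the sham pieces. Fhl1, a LIM protein of stressed muscle, rose by 0.70 and did not pass without array R389 (limma adjusted p = 0.15). Nppa, the atrial natriuretic peptide gene, read 1318, 1604 and 1370 in the remote pieces and 1146, 1502 and 1892 in the sham pieces, with a change of -0.06 ± 0.31.

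The contractile and metabolic genes showed no call in this test. Of 24 genes of sarcomere and calcium handling and 57 of oxidative phosphorylation, none passed in either direction in limma, with 2 and 1 at an unadjusted p below 0.05. The medians were -0.05 and -0.11, and 6 members of each list had a change above 0, where 3322 of all 6670 genes did. Myh6, the adult myosin heavy chain, changed by -0.06 ± 0.41 and Atp2a2, the calcium pump, by -0.04 ± 0.26. In simulated data of the same size, 26% of randomly drawn genes changed by 0.5 log2 units were found and 80% of those changed by 1, so small shifts would mostly be missed. The SE of Myh6 and Atp2a2 lay above the median of 0.178 over all genes tested, so these rates may be too high for them. Among 32 genes of fatty acid oxidation and its regulators, Angptl4, an inhibitor of lipoprotein lipase, was the 1 that rose (1.24 ± 0.26). Its other probe sets gave 0.90 and 0.10 and did not pass. Of 20 ion channel and connexin genes none passed in limma (3 at an unadjusted p below 0.05). Of 28 hypoxia and glycolysis genes 2 rose, against 1.42% of all genes tested: Hif1a, an oxygen-regulated factor, by 0.61 and Vegfa, given above. Neither passed without array R389 (limma adjusted p = 0.083 for Hif1a). There was no call for Slc2a4, the insulin-dependent glucose transporter (-0.47, limma adjusted p = 0.47).

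The 21 lower genes formed no list. Besides Herpud1 they included Rsrp1 (-0.90), Tubg1, a tubulin of the centrosome (-0.88), Gsta3, a glutathione transferase (-0.84), Capn1, a calcium-dependent protease (-0.82), and Tef, a clock output factor (-0.81). Id1, an inhibitor of helix-loop-helix factors, was lower at 1071, 836 and 1031 in the remote pieces against 1277, 1784.5 and 1577 in the sham pieces (-0.63). Its relative Id2 was higher at 2272.5, 1715 and 1790 in the remote pieces against 445, 349 and 413 in the sham pieces (2.13 ± 0.28). Ramp2, a co-receptor of adrenomedullin, and Lamb2, a laminin chain of vessel and muscle basement membranes, fell by 0.57 and 0.53. Without array R389, 5 of the 21 passed, and of the genes named here Capn1 was among them. None of the 21 falls held in all 15 alternative settings tried, and Capn1 was lost in 4 of them. Of 19 clock genes measured, Arntl (1.04), Nr1d1 (0.79) and Bhlhe40 (0.87) rose and Tef fell, where 1.42% of all genes tested rose and 0.315% fell. None of these 4 clock genes passed without array R389, where their changes were 0.98, 0.80, 0.81 and -0.82 in the same order. The hour of the day at which pieces were taken is not given in the sources used here.

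The 2 atrial light chains measured, Myl7 and Myl4, were higher in every remote piece than in every sham piece, yet did not pass. Of all genes tested, 11.3% were separate in this direction. Myl7, the atrial regulatory light chain, read 268, 638 and 528 in the remote pieces and 25.3, 95 and 24.1 in the sham pieces (log2 2.49 ± 0.73, limma adjusted p = 0.071). The groups did not overlap. The infarct pieces read 22 to 26.4, near the lower sham values, and differed from the remote pieces by -2.83 log2 units (limma adjusted p = 0.019). Myl4, the atrial essential light chain, read 338.6, 418 and 387 in the remote pieces and 181, 206 and 150 in the sham pieces (0.93, limma adjusted p = 0.067). None of the 12 atrial and conduction markers passed in limma (2 at an unadjusted p below 0.05). They had a median of 0.07 (0.18 without array R389) and summed to 6601, 7453 and 7208 in the remote pieces and to 6132, 6682 and 7376 in the sham pieces. Nppa, given above, did not separate the groups. The part of atrial tissue in the results was not tested.

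The infarct pieces of the same title numbers show how far the remote change went at 4 hours. Between infarct and remote pieces 95 genes differed (1.42%), 47 higher (0.705%) and 48 lower (0.72%) in the infarct. Leaving out any 1 of the 6 arrays left 31 to 63 calls, and a fit without the title number as a block left 51. This comparison and that with sham use the same remote arrays, so their values are only set side by side. Il6 read 3373, 3833 and 3478 in the infarct pieces, 1.41 log2 units above the remote pieces (limma adjusted p = 0.027). Hspa1b read 6248, 7744 and 5466 in the infarct pieces, 2.01 above, and Socs3 read 3305, 2749 and 2271, 1.14 above. Atf3 and Egr1 were 1.25 and 1.18 higher in the infarct, and Selp, Junb and Gadd45g, a growth arrest protein, were 1.06, 1.03 and 1.03 higher. For these genes the remote level lay between that of the infarct and that of the sham pieces. No chemokine passed between infarct and remote pieces: Cxcl1, Cxcl2 and Ccl2 differed by 0.53, 0.57 and 0.25 log2 units (limma adjusted p = 0.52, 0.61 and 0.85), and of the 19 chemokines 4 had an unadjusted p below 0.05. No neutrophil marker passed either (2 of 16 at an unadjusted limma p below 0.05), with S100a8 at 855, 654 and 995 in the infarct pieces, 0.82 lower than in the remote pieces (limma adjusted p = 0.41).

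Some genes lower in the infarct than in the remote pieces had remote levels close to those of sham. Ucp3, a mitochondrial carrier under fatty acid control, read 152, 166 and 206 in the infarct pieces, 368, 450 and 639 in the remote pieces and 510.5, 498 and 494 in the sham pieces. The infarct level was 1.25 below the remote level (limma adjusted p = 0.028), and the remote level was -0.07 ± 0.34 from sham. Plin4, a lipid droplet protein, and Irx3, a transcription factor of the conduction system, were 1.13 and 1.08 lower in the infarct, and -0.06 and 0.12 from sham in the remote pieces. Fkbp5, a glucocorticoid-induced chaperone, was 0.83 lower in the infarct and -0.18 from sham in the remote pieces.

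**Figure D4:**
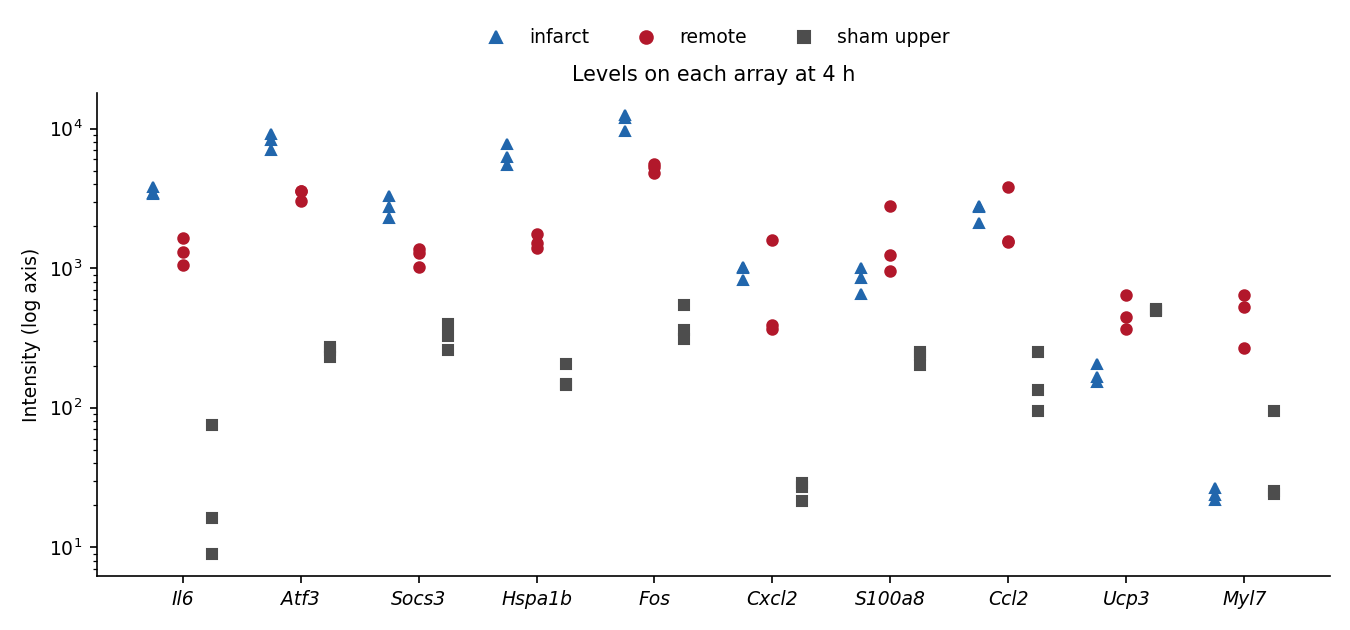
Intensity on each array at 4 hours (log axis) in infarct, remote and sham upper pieces, 3 arrays each. Il6, Atf3, Socs3, Hspa1b and Fos step down through the regions with no overlap, the infarct and remote arrays overlap for Cxcl2, S100a8 and Ccl2, Ucp3 reads lowest in the infarct pieces, and Myl7 reads highest in the remote pieces.

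The 1 hour and 24 hour comparisons use other arrays for both groups, but the same fit and the same estimate of each gene's spread. A gene with a small spread is thus more easily called at every time, and the shared calls below are not separate results. Of the 95 genes higher at 4 hours, 25 were also called higher in remote myocardium at 1 hour, when 368 genes were higher (5.52% of the genes tested), and 51 at 24 hours, when 196 were higher (2.94%). In either direction 535 genes (8.02%) differed at 1 hour and 300 (4.5%) at 24 hours. The shared genes are 26.3% and 53.7% of the 95, and 6.79% and 26.0% of the genes called at the other time. Of the 21 genes lower at 4 hours, 3 were also lower at 1 hour, of 167 (2.5% of the genes tested), and 2 at 24 hours, of 104 (1.56%). At all 3 times 16 genes were higher, among them Il6, Fos, Atf3, Ccl2, Cxcl1, Cxcl2, Junb, Socs3, Myc and Ptx3. Fos averaged 3771 ± 863 in remote pieces at 1 hour, 5233 ± 375 at 4 hours and 458 ± 144 at 24 hours (SD, n = 3), against 72.9 ± 1.8, 403 ± 122 and 140 ± 101 in sham pieces.

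The change itself was tested between times with the sham pieces of each time. From 1 hour to 4 hours the remote change grew in 5 genes (0.075%) and shrank in none, while 864 had an unadjusted limma p below 0.05. They were Hspa1b, Hspa1a, Sphk1, Akap12, a scaffold of protein kinases, and Uck2, a kinase of nucleoside salvage. Akap12 averaged 1054 ± 75 in remote and 258 ± 49 in sham pieces at 4 hours, with 581 ± 51 in remote and 408 ± 76 in sham pieces at 1 hour (SD, n = 3). For the heat shock pair the sham pieces of 1 hour were themselves high and uneven, with Hspa1b at 867 ± 641. The count went from 0 to 44 as single arrays were left out, so these 5 rest on particular arrays. None passed without R389, R390, the remote 1 hour array R395, S507, S509 or the sham 1 hour array S512. Without the remote 1 hour array R392, 2 genes passed, and 0 of them were among the 5. The count was 15 without R391 and 44 without the sham 1 hour array S514, both with all 5 among them. In 33 of the 44 the remote change shrank. Over all fits with 1 array left out, 642 to 927 genes had an unadjusted limma p below 0.05.

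From 4 hours to 24 hours the remote change differed in 17 genes (0.255%), 7 lower at 24 hours (0.105%) and 10 higher (0.15%). The 7 include Il6, Id2, Selp and Akap12. Il6 averaged 154 ± 141 in remote and 9.1 ± 7.3 in sham pieces at 24 hours, and 1329 ± 294 in remote and 33.4 ± 36.3 in sham pieces at 4 hours. Id2 averaged 648 ± 317 in remote and 583 ± 163 in sham pieces at 24 hours, so that its change at that time was 0.09 log2 units. The 10 include Osmr, a receptor subunit for oncostatin M, Cebpd, an acute phase factor, Lrg1, an acute phase glycoprotein, and Plin2, a lipid droplet protein. Osmr averaged 1397 ± 303 in remote and 513.5 ± 104 in sham pieces at 24 hours, against 1051 ± 58 in remote and 884 ± 86 in sham pieces at 4 hours. Without remote array R389 none of the 17 passed (7.68% of genes at an unadjusted limma p below 0.05), and none passed in a fit of these 4 groups alone (691 genes). The count was 4 to 9 without S506, S507, R391, the sham 24 hour array S510 or S515 or the remote 24 hour array R361.

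**Figure D5:**
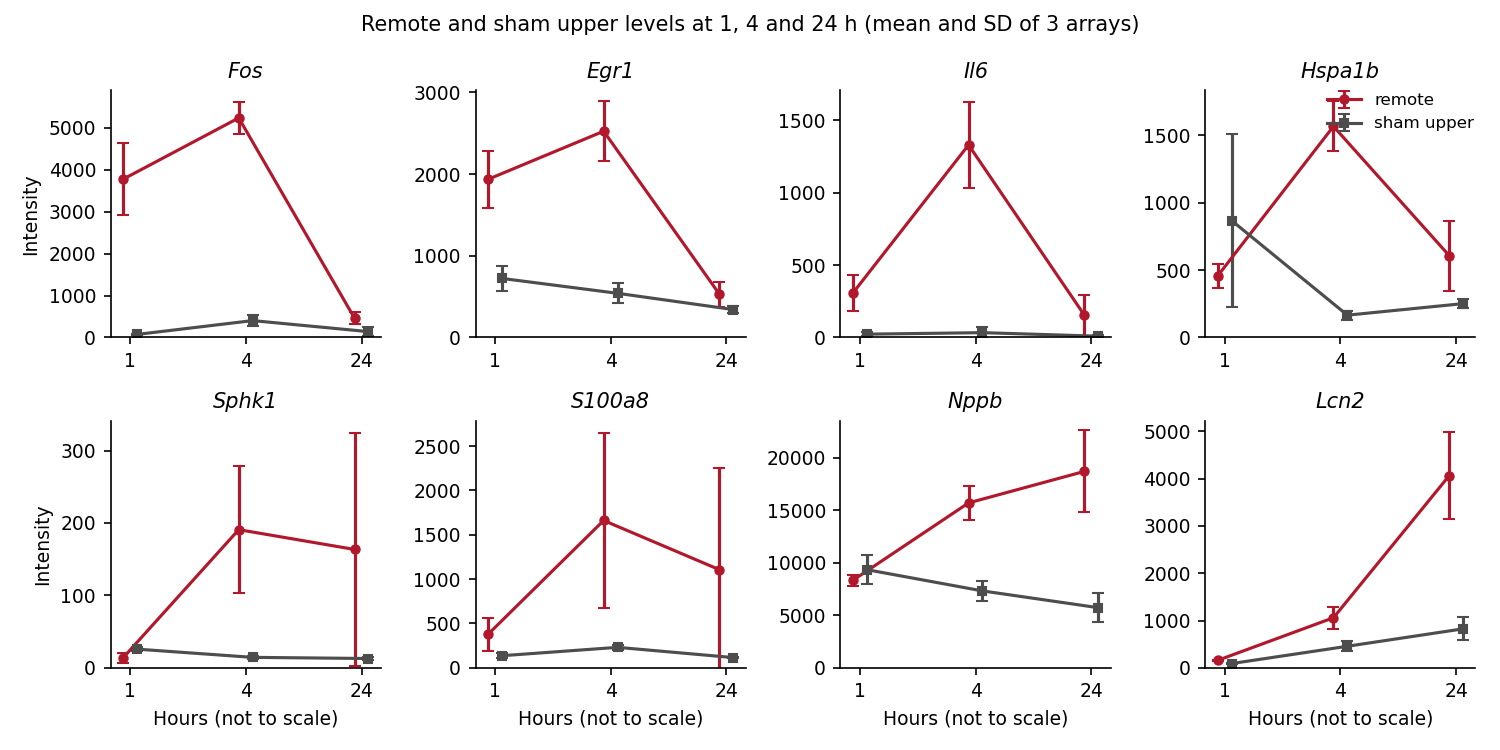
Mean intensity and SD of 3 arrays in remote and sham upper pieces at 1, 4 and 24 hours for 8 genes. Fos and Egr1 are high in remote pieces at 1 and 4 hours and Il6 peaks at 4 hours, whereas Nppb averages 18680 and Lcn2 4066 in remote pieces at 24 hours, above their 4 hour means of 15684 and 1060.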

How the data were processed

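The series holds 59 arrays, each of 1 piece of left ventricle, of which 6 carry the comparison. The deposited values were linear intensities per probe set, on a common scale across arrays as the values themselves show. The tool the authors used for this is not given in the sources used here. Of 12488 probe sets, 10833 with 1 gene were kept (66 control, 396 with several genes and 1193 with none were left out), covering 8251 genes; for the 2073 with several probe sets the brightest was used. The 6670 genes tested reached 108.2 (percentile 40 of the deposited intensities) on 3 arrays or more. log2(intensity + 45.6), the offset being 0.25 times the median of all deposited intensities, was fitted with limma 3.58.1 in R 4.3.3. The model had 23 region-by-time groups and the title number as a random block (correlation 0.148). p-values were adjusted by Benjamini-Hochberg over all genes, with a threshold of 0.05. The fit was tested on simulated data, in which 98% of genes changed by 2 log2 units were found. The number of arrays limits the precision.

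The 33 gene lists and the comparison itself were chosen with earlier results of these data known. Of their 900 genes, 662 were measured. Genes named were drawn from the 20 largest rises, up to 20 falls, all list members that passed, up to 3 per list that did not, a fixed panel, and the 8 largest changes in each direction of the other comparisons. Some genes under other observations were chosen outside this rule. Not every gene of this pool is named, so a gene given as not passing need not be the largest such change of its list. Alternatives tried were the offset, filter, normalization, probe sets, block, control arrays, arrays in the fit and each array left out in turn. Gene names come from GEO's platform annotation and promoters from RefSeq (GRCm38.p6). Figures were drawn in Python with matplotlib.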

Additional observations from a re-analysis of the deposited data

Results flagged for a closer look

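The remote change, that is remote minus sham upper of the same time, was tested between times in limma. Between 4 hours and 1 hour it was larger at 4 hours in 5 genes, here with the difference in log2 units: Hspa1b (3.34), Hspa1a (3.26), Sphk1 (2.18), Akap12 (1.39) and Uck2 (1.26). Standard errors ran between 0.27 and 0.68, and limma adjusted p between 0.039 and 0.042.

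Between 24 hours and 4 hours it was smaller at 24 hours in 7 genes: Il6 (-2.68), Id2 (-2.04), Selp (-1.81), Akap12 (-1.40), Chordc1 (-1.21), Slco5a1 (-1.19) and Sema6d (-0.94). It was larger at 24 hours in 10 genes: Plin2 (1.36), Cebpd (1.16), Rtn4 (1.11), Osmr (1.11), Eif4ebp1 (1.04), Lrg1 (1.02), Tnfrsf1a (1.02), Cyb561 (1.01), Ppp2r5c (0.82) and Apex1 (0.76). Standard errors ran between 0.16 and 0.54, with limma adjusted p from 0.015 upwards. Chordc1, a cochaperone of Hsp90, averaged 804 ± 245 in remote and 1282 ± 94 in sham pieces at 24 hours, against 1103 ± 78.5 in remote and 764 ± 123 in sham pieces at 4 hours (SD, n = 3). Without remote array R389, 0 genes passed in either limma test, with 829 genes (4 hours minus 1 hour) and 7.68% of genes (24 hours minus 4 hours) at an unadjusted p below 0.05. No group held enough arrays for a test of single outlying arrays.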

How the results depend on the processing

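Leaving out 1 array at a time gave 59 to 102 calls for remote against sham upper at 4 hours (116 with all arrays), 31 to 63 for infarct against remote (95), 0 to 44 for the change at 4 hours minus that at 1 hour (5) and 0 to 21 for that at 24 hours minus that at 4 hours (17). For remote against sham, calls fell below 116 by over 1.5 times without remote array R389 (59) and without sham array S506 (76), S507 (71) or S509 (75). With the sham upper arrays of 1, 4 and 24 hours together as control there were 365 calls, 223 higher and 142 lower, of which 101 were among the 116. The other settings gave 97 to 131 calls: 97 from the 6 arrays alone, of which 70 were shared, and 131 with every probe set. Of the 116 calls, 45 held in all 15 alternatives, all of them higher in remote pieces, and no call changed direction. For the later change, quantile normalization gave 8 calls, and a fit of the groups compared alone gave 0 (691 at an unadjusted limma p below 0.05); for the earlier one that fit gave 18. Without the replicate block there were 51 calls for infarct against remote, 3 for the change at 4 hours minus that at 1 hour and 121 for remote against sham, while a fixed replicate block gave 89 for infarct against remote, of which 64 were shared. At 4 hours, deviations of same-numbered infarct and remote pieces correlated at 0.033, 0.007 and -0.014. Over the whole series the correlation within title numbers was 0.148. No paired fit of remote with sham was possible because they share no title number. The cause of these shifts was not tested. For 18 of the 116 genes 19 further probe sets were tested: all 19 had the same sign and 8 passed. Dim genes such as Il6 in sham pieces are limited by signal near background, where the offset shrinks the change.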

Other observations

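Of the 116 genes, 50 stood in no list. Among them were Rrad, a small GTP-binding inhibitor of calcium channels, at 9841, 10555 and 8960 in remote pieces and 2973, 2749 and 3962 in sham pieces (log2 1.60 ± 0.33, limma adjusted p = 0.0024), and Akap12 (1.87 ± 0.21), both higher on all 3 remote arrays. Among cytoskeletal genes calls went both ways and some members gave none. Actg1, cytoplasmic gamma actin, read 10308, 8835 and 8577 in remote pieces and 5996, 5260.5 and 5880 in sham pieces (0.69 ± 0.13). Tubb6, a beta tubulin, and Tpm4, a cytoplasmic tropomyosin, rose by 0.74 and 0.55 and did not pass without array R389 (limma adjusted p = 0.18 and 0.20). The tubulin Tubg1, given above, fell by 0.88 with all arrays and did not pass without R389 (limma adjusted p = 0.055), and Actb, cytoplasmic beta actin, read 2800, 2240 and 3100 in remote pieces against 2903, 2412.5 and 2301 in sham pieces (0.09, limma adjusted p = 0.94). Emp1, a membrane protein, and Ugdh, the enzyme that makes the precursor of hyaluronan, rose by 0.93 and 1.32. These genes were named after their values were seen.

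Enzymes of local mediators were also among them. Hdc, which makes histamine, read 477, 208 and 215 in remote pieces and 98.1, 81.0 and 67.2 in sham pieces (1.36 ± 0.32, limma adjusted p = 0.014), and Ptges, which makes prostaglandin E2, read 302, 135 and 110 in remote pieces and 72.2, 31.7 and 58.9 in sham pieces (1.12 ± 0.31). Both were highest on array R389 and did not pass without it (limma adjusted p = 0.20 and 0.39). Lilr4b, an inhibitory receptor of myeloid cells, rose by 2.06 ± 0.36 and passed without that array.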
